A study of Rattus norvegicus with 10 samples.

Results

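Serpins are a family of proteins with a shared fold, most of which inhibit serine proteases, and the liver is the main source of those in plasma. The genes described here are all those whose array annotation carries a serpin symbol of clades A to I, each read from a probe set paired with exactly 1 gene. They number 33 of the 14217 genes with such a probe set, and 5 of them have a further probe set, so that 38 probe sets read a serpin. Clade A had 12 members, clade B 11, clades E, F and I had 2 each, and clades C, D, G and H had 1 each. RefSeq lists 49 protein-coding serpin genes of these clades in the rat, and the 16 others are not analysed here. The samples were livers of male Sprague-Dawley rats, 5 weeks old by the labels. The study's text gives a younger age. The iron-deficient group (n = 5) ate an iron-deficient diet with about 3 ppm iron freely for 3 days. The pair-fed group (n = 5) received the control diet with 48 ppm iron in amounts matched by pair feeding. All rats were killed on day 3, 1.5 h after feeding. The labels can also be read as a meal of that length. Each liver was hybridized to 1 Affymetrix rat genome array, and the question put to the serpins is whether their transcript levels differed between the diets. Values are robust multiarray average (RMA) signals on the log2 scale, which do not permit the transcript amount of one gene to be set against that of another. Ranks and sums over genes given below describe array signals, not transcript amounts. Differences are the iron-deficient mean minus the pair-fed mean.

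An inhibitory serpin offers an exposed reactive centre loop as bait. The protease cuts the loop, and the serpin snaps into a new shape that traps the enzyme, so that each inhibitor molecule is used up. Clade A holds secreted inhibitors and hormone carriers of plasma, and clade B holds proteins that mostly stay inside cells. Several members no longer inhibit proteases: they carry thyroxine or corticosteroids, act on blood vessels or nerve cells, or guide the folding of collagen.

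Of the 33 serpin genes, 2 were down-regulated and 0 were up-regulated by the rank products method (false discovery rate, FDR, under 0.05). The down-regulated genes were Serpinb9b and Serpina7. Over all 31042 probe sets, 0.573% were down-regulated and 0.303% up-regulated by the same criterion, and the difference between the share of the serpins and the share of all probe sets was not tested. With limma, which weighs a difference by the spread between rats, 0 serpins had a Benjamini-Hochberg adjusted p under 0.05. The lowest was 0.494, that of Serpinb9b, and over all probe sets the lowest was 0.397 with 0 under the threshold. At an unadjusted limma p under 0.05 there were 3 serpins (Serpinb9 and Serpinf2 higher, Serpinb9b lower), where 6.98% of all probe sets met this criterion. The 2 groups of rats did not overlap in 0 serpins, against 1.29% of all probe sets. The median difference over the 33 genes was 0.02, against -0.01 over all genes. Of the 33, 29 (87.9%) differed by less than 0.2 in either direction, against 91.8% of all genes. The replicates are separate rats, and their number limits the precision.

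The promoters of the 2 down-regulated genes, and of Serpinb9, the neighbour of Serpinb9b that differed in the other direction, are shown here because the 3 genes carry the widest differences in the family. The sequences are the 250 bases before the start of each gene in RefSeq (assembly GRCr8), all on the minus strand: chr17:31594984-31595233 for Serpinb9b, chrX:107457682-107457931 for Serpina7 and chr17:31640817-31641066 for Serpinb9. Capitals mark matches, on either strand, to 4 motifs: TATAAA (the TATA box), GTTAAT (a core of the HNF1 site), TTGCNNAA (a core of the C/EBP site) and TTCNNNGAA (a core of the STAT site).
Serpinb9b: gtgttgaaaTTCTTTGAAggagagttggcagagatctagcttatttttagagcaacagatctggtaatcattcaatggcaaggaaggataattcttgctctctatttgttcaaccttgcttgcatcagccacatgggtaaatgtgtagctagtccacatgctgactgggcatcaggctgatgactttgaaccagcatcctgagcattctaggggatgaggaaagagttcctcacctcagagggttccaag
Serpina7: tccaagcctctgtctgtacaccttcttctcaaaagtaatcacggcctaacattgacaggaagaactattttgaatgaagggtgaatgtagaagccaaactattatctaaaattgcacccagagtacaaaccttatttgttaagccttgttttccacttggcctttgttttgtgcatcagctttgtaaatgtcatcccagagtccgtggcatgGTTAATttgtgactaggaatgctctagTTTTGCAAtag
Serpinb9: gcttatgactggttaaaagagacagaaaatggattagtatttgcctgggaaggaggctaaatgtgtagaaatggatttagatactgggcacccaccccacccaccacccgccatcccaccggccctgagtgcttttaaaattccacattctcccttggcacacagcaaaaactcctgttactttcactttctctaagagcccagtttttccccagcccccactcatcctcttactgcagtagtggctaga
The Serpina7 promoter held GTTAAT, beginning 38 bases before the start, and a match to TTGCNNAA on the opposite strand, beginning 11 bases before it. The Serpinb9b promoter held TTCNNNGAA once, 241 bases before the start. In the Serpinb9 window none of these letters occurred, and no match overlapped another in any of the 3. A promoter was at hand for 27 of the 33 genes. Of these, 2 held GTTAAT, 6 held TTGCNNAA, 4 held TTCNNNGAA and 4 held TATAAA, where the shares among 27457 rat promoters were 6.46%, 9.2%, 7.52% and 13.1%. The promoters of Serpinb9b and Serpinb9 matched at 46.0% of their 250 bases after global alignment. Those of Serpinb9b and Serpina7, which is of another clade and chromosome, matched at 46.8%. No promoters from outside the serpins were aligned.

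Serpinb9b is a clade B serpin of the intracellular kind, whose mouse counterpart inhibits granzyme M, a protease of killer lymphocytes. Its log2 signal was 5.34, 5.29, 5.32, 5.66 and 5.24 in the iron-deficient rats, against 8.86, 7.0, 8.10, 5.51 and 8.30 in the pair-fed rats. The 5 iron-deficient rats were all low and close together. Among the pair-fed rats 4 were high and widely spread, and the remaining one, replicate 4, lay inside the iron-deficient range. The means were 5.37 ± 0.17 in the iron-deficient group and 7.55 ± 1.33 in the pair-fed group (SD, n = 5 each). The difference was -2.18 (SE 0.483 from limma), or 4.53-fold lower in the iron-deficient group. All 5 iron-deficient rats and pair-fed replicate 4 lay under the median of all probe sets (6.21), so the fold is uncertain. The mean over all arrays, 6.46, lay above that median through the 4 high pair-fed rats. Serpinb9b ranked 1st of all probe sets among the down-regulated, with an estimated FDR of 0.0 from 100 permutations. The exact permutation test of this gene (2-sided) gave p = 0.0159. The limma adjusted p was 0.494. The SD among the pair-fed rats was the 18th highest of 31042 probe sets, while the SD among the iron-deficient rats took place 11193. Without any 1 of the 10 arrays the gene was still down-regulated by rank products, with a difference between -2.69 and -1.85. In whole liver, fewer cells of a type and less RNA per cell cannot be told apart. Of 8 T and NK cell markers measured, 7 had a lower mean in the iron-deficient group and 0 passed the rank products. Their summed level, as log2 of the summed signals, was 8.37 to 8.54 in the iron-deficient group and 8.31 to 8.73 in the pair-fed group, and only 1 of them lay above the median of all probe sets. All 6 Kupffer cell and macrophage markers measured were likewise lower on average in iron-deficient livers, without passing the rank products, and their summed levels were 12.53 to 12.87 in the iron-deficient group and 12.58 to 13.24 in the pair-fed group. The 5 mast cell markers were all higher on average, though 0 passed and all lay under the median of all probe sets. Their summed levels were 7.70 to 7.88 in the iron-deficient group and 7.36 to 7.69 in the pair-fed group. Of 3 neutrophil markers, 2 were lower and 1 higher. Gzmm (granzyme M) averaged 0.09 lower, with 6.26 to 6.77 in iron-deficient rats and 6.48 to 6.75 in pair-fed rats. The part of any of these cells in the Serpinb9b result was not tested.

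Serpina7 encodes thyroxine-binding globulin, a plasma carrier of thyroid hormone that has lost protease inhibition and whose rat gene is known to respond to age and thyroid state. Its signal was 9.78, 10.13, 10.51, 11.20 and 10.14 in the iron-deficient rats, against 11.08, 11.73, 10.72, 10.07 and 10.89 in the pair-fed rats. Iron-deficient replicate 4 was the highest of its group, and pair-fed replicate 2 the highest and replicate 4 the lowest of the pair-fed group. The groups overlapped. The means were 10.35 ± 0.54 in the iron-deficient group and 10.90 ± 0.60 in the pair-fed group (SD, n = 5 each). The difference was -0.55 (SE 0.294), or 1.46-fold lower, with FDR 0.0125 by rank products, adjusted p 0.754 by limma and p = 0.175 by the exact permutation test. Its spread between rats was large in each group, with SDs ranking 322nd among iron-deficient and 213th among pair-fed rats of the 31042 probe sets. The down-regulation was not kept without iron-deficient replicate 1 (-0.40, FDR 0.0536) or without pair-fed replicate 2 (-0.34, FDR 0.171). It held without each of the other 8 arrays.

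**Figure D1:**
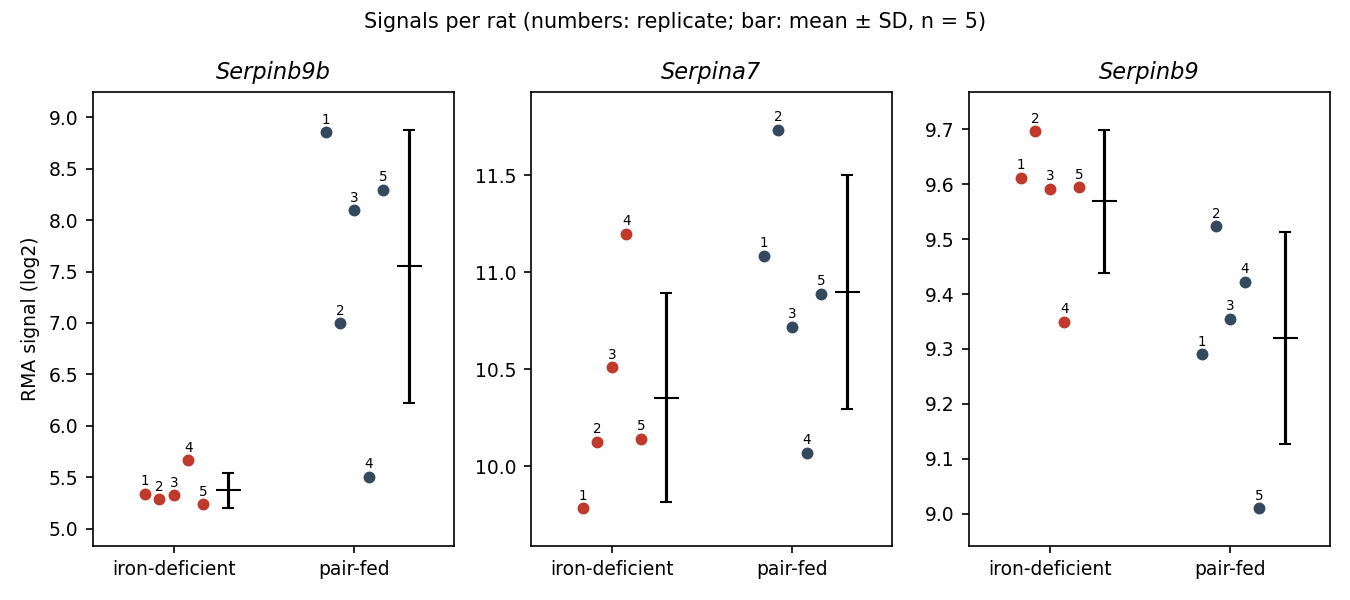
RMA signal (log2, y axis, with its own scale in each panel) of Serpinb9b, Serpina7 and Serpinb9 in each rat, iron-deficient at left (red) and pair-fed at right (dark), with the mean and SD of 5 rats as a bar. Pair-fed replicate 4 lies within the iron-deficient range of Serpinb9b, and in Serpina7 replicate 4 is the highest of the iron-deficient and the lowest of the pair-fed rats.

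The other hormone carrier among the serpins, Serpina6 (corticosteroid-binding globulin), is on chromosome 6 and differed by -0.01, with 12.63 to 13.26 in the iron-deficient group and 12.86 to 13.25 in the pair-fed group. Of 7 further plasma carriers of hormones and vitamins, 0 passed the rank products in either direction and 3 did not overlap between the groups, against 1.29% of all probe sets. One was Ttr (transthyretin, which also carries thyroxine), with 14.78 to 14.84 in iron-deficient rats and 14.73 to 14.77 in pair-fed rats. The difference was 0.06 (limma adjusted p 0.840, exact permutation p = 0.00794). Signals this near the top of the scale can be compressed, so the small difference and SDs of Ttr (0.023 iron-deficient, 0.020 pair-fed) are uncertain. Of the 7 carriers, 4 had a positive and 3 a negative difference, with a median of 0.00. An unadjusted limma p under 0.05 was met by 3 of them (6.98% of all probe sets).

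Among the remaining inhibitors of clade A, differences were small. Serpina1 (alpha-1-antitrypsin, an inhibitor of neutrophil elastase) had signals of 14.74, 14.74, 14.81, 14.76 and 14.76 in the iron-deficient rats, against 14.79, 14.73, 14.74, 14.74 and 14.80 in the pair-fed rats. The groups overlapped fully, and the difference was 0.00 (SE 0.0518, limma adjusted p 0.995, exact permutation p = 0.881). Its SDs, 0.027 in the iron-deficient group and 0.033 in the pair-fed group, were the smallest of the family in each. Its mean signal was the 12th highest of 31042 probe sets, and those of Serpina3c, Serpina3l and Serpinc1 were the 29th, 33rd and 51st. Signals near the top of the scale can be compressed, so small SDs and differences there do not show that the transcripts were stable. Serpina3c, of the rat group related to alpha-1-antichymotrypsin, had 14.54, 14.46, 14.44, 14.60 and 14.38 in iron-deficient rats, against 14.41, 14.47, 14.53, 14.42 and 14.51 in pair-fed rats. Those ranges overlapped as well, with a difference of 0.01 (SE 0.0615, limma adjusted p 0.981, exact permutation p = 0.778). The other members of that group were higher on average by 0.01 (Serpina3l), 0.07 (Serpina3n, an acute phase protein) and 0.13 (Serpina3m), all with overlapping groups. The promoters of Serpina3m, Serpina3n and Serpina3l matched each other at 64.8% to 78.0% of their 250 bases. Whether the probe sets of this group read more than 1 of its related genes was not tested. Of 17 acute phase genes measured, 1 was down-regulated by rank products, Orm1 (alpha-1-acid glycoprotein), where 0.573% of all probe sets were. The list had a median difference of 0.03.

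Serpina10, the inhibitor of activated factor X that works with protein Z, was the only member besides Serpinb9b and Serpinb6a with all 5 iron-deficient rats below the pair-fed median. It had 12.23, 12.42, 12.40, 12.43 and 12.42 in the iron-deficient rats, against 12.53, 12.47, 12.38, 12.41 and 12.53 in the pair-fed rats, a difference of -0.08 that did not pass (limma adjusted p 0.816, exact permutation p = 0.119). Serpina4 (kallistatin, an inhibitor of tissue kallikrein) differed by -0.05, Serpina11 by 0.05 and Serpina12 (vaspin, known from fat tissue) by 0.00. Serpina5 (protein C inhibitor) differed by 0.10. Its spread was wide, with an SD of 0.46 in the iron-deficient group and 0.36 in the pair-fed group, and the highest rat, iron-deficient replicate 1, was at 7.48.

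**Figure D2:**
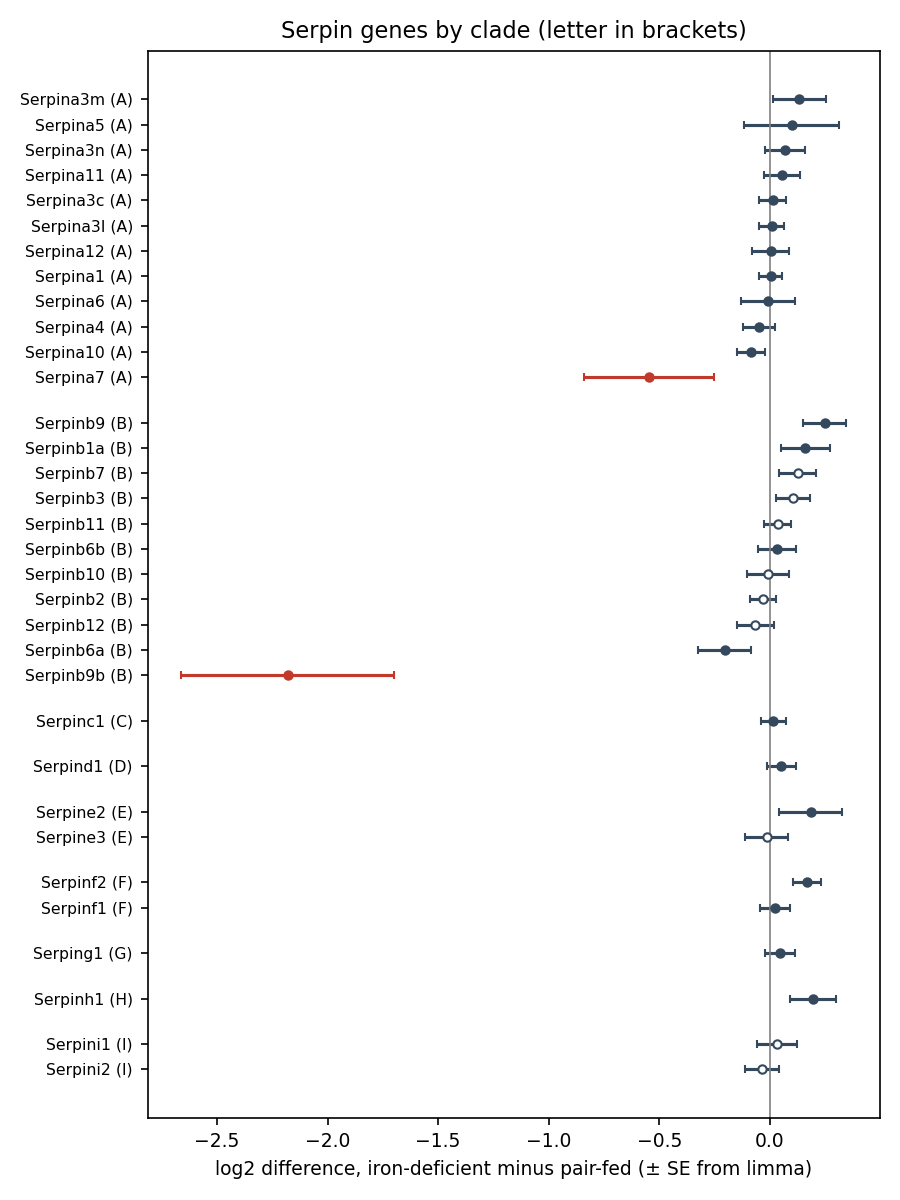
Log2 difference, iron-deficient minus pair-fed, of each of the 33 serpin genes with its standard error from limma (x axis), ordered by clade and size (y axis). Red marks the 2 genes that were down-regulated by rank products, and open circles mark genes whose mean lies under the median of all probe sets; apart from Serpinb9b and Serpina7 the differences lie between -0.20 and 0.25.

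In clade B, the 5 members on chromosome 17 were Serpinb6a, Serpinb9b, Serpinb9, Serpinb6b and Serpinb1a in the order along the chromosome. They did not share a direction. Serpinb9 lies next to Serpinb9b, and its human counterpart inhibits granzyme B. It had 9.61, 9.70, 9.59, 9.35 and 9.59 in the iron-deficient rats, against 9.29, 9.52, 9.35, 9.42 and 9.01 in the pair-fed rats. In the iron-deficient group 4 rats lay above every pair-fed rat, and replicate 4 lay within the pair-fed range. The difference was 0.25 (SE 0.0972), the highest of the family. It did not pass the rank products or limma's adjustment (adjusted p 0.673), with p = 0.0476 in the exact permutation test. Its further probe set differed by 0.16. Of 13 leukocyte and lysosomal proteases measured, 0 passed the rank products in either direction. An unadjusted limma p under 0.05 was met by 2 of them (6.98% of all probe sets). Gzmb (granzyme B) averaged 0.17 lower on the log2 scale in the iron-deficient group, with 4.68 to 4.99 in iron-deficient rats and 4.68 to 5.21 in pair-fed rats, all under the median of all probe sets.

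Serpinb6a, whose human counterpart inhibits cathepsin G, was at 8.31, 8.30, 8.16, 7.66 and 8.17 in the iron-deficient rats, against 8.26, 8.41, 8.32, 8.13 and 8.49 in the pair-fed rats. Iron-deficient replicate 4 stood well below all others, and the rest overlapped. The difference was -0.20 (SE 0.118, limma adjusted p 0.770, exact permutation p = 0.159), and -0.09 without that replicate. Serpinb1a, an inhibitor of neutrophil elastase, had all 5 iron-deficient rats above the pair-fed median, with 6.88 to 7.33 in the iron-deficient group and 6.74 to 7.22 in the pair-fed group. Its difference was 0.16, and 0.15 by its further probe set. Neither passed. Serpinb6b differed by 0.03.

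The 6 clade B members on chromosome 13 all had signals under the median of all probe sets (6.21), so little can be read from them. Serpinb7 differed by 0.13, and by -0.03 in its further probe set, which turns the direction. Serpinb3 differed by 0.10, Serpinb11 by 0.04, Serpinb10 by -0.01, Serpinb2 (plasminogen activator inhibitor 2) by -0.03 and Serpinb12 by -0.07. In all 6 the groups overlapped. The median difference over clade B was 0.03, and over clade A 0.01.

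Clades C, D and E hold further inhibitors of thrombin. Serpinc1 (antithrombin, the main heparin-dependent inhibitor of thrombin in plasma) had 14.19, 14.19, 14.13, 14.12 and 14.25 in iron-deficient rats, against 14.26, 14.14, 14.15, 14.12 and 14.12 in pair-fed rats. The ranges coincided, and the difference was 0.02 (SE 0.0567, limma adjusted p 0.973, exact permutation p = 0.635). Serpind1 (heparin cofactor II) had 13.60, 13.58, 13.68, 13.54 and 13.63 in iron-deficient rats, against 13.70, 13.55, 13.53, 13.40 and 13.59 in pair-fed rats. Here too each group reached into the other, and the difference was 0.05 (SE 0.0659, limma adjusted p 0.906, exact permutation p = 0.397). F2, which encodes prothrombin, the precursor of thrombin, differed by 0.02.

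Serpine2 (protease nexin-1, a cell-bound inhibitor of thrombin and plasminogen activators) had 9.44, 8.85, 8.69, 8.57 and 9.15 in iron-deficient rats, against 8.89, 8.73, 8.71, 8.82 and 8.62 in pair-fed rats. Iron-deficient replicates 1 and 5 were above all pair-fed rats, and replicate 4 was below them. The difference was 0.18 (SE 0.141, limma adjusted p 0.820, exact permutation p = 0.349). It was 0.06 without iron-deficient replicate 1. Serpine3 was at 3.91, 4.44, 4.40, 4.31 and 4.39 in iron-deficient rats, against 4.16, 4.29, 4.40, 4.31 and 4.36 in pair-fed rats. Iron-deficient replicate 1 was the lowest and the other values overlapped, with a difference of -0.02 (SE 0.0978, limma adjusted p 0.985, exact permutation p = 0.937).

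Serpinf2 encodes alpha-2-antiplasmin, the fast inhibitor of plasmin. It had 12.91, 12.79, 12.81, 12.78 and 12.99 in the iron-deficient rats, against 12.78, 12.67, 12.65, 12.71 and 12.62 in the pair-fed rats. All 5 iron-deficient rats lay above the pair-fed median, and only the lowest of them, replicate 4, fell just under the highest pair-fed rat. The difference was 0.17 (SE 0.0634), which did not pass the rank products or limma's adjustment (adjusted p 0.662), and p = 0.0159 in the exact permutation test. Plg (plasminogen, the precursor of its target) differed by 0.14, with 13.87 to 14.09 in iron-deficient rats and 13.79 to 13.92 in pair-fed rats. Of the 16 proteases of coagulation, fibrinolysis and complement measured, 0 passed the rank products in either direction and the median difference was 0.00. Over all probe sets, 0.573% were down-regulated and 0.303% up-regulated. Of the 16, 2 met an unadjusted limma p under 0.05 (6.98% of all probe sets), Plg and C1r, both higher. Serpinf1 (pigment epithelium-derived factor, which does not inhibit proteases), a neighbour of Serpinf2 on chromosome 10, had 13.65, 13.80, 13.83, 13.88 and 13.86 in iron-deficient rats, against 13.80, 13.78, 13.80, 13.88 and 13.65 in pair-fed rats. The groups overlapped throughout, and the difference was 0.02 (SE 0.0671, limma adjusted p 0.968, exact permutation p = 0.667).

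Serping1, the C1 inhibitor that restrains complement and the contact system, had 13.25, 13.30, 13.25, 13.24 and 13.50 in iron-deficient rats, against 13.30, 13.19, 13.35, 13.22 and 13.27 in pair-fed rats. Only iron-deficient replicate 5 stood out, and the difference was 0.05 (SE 0.0668, limma adjusted p 0.922, exact permutation p = 0.516). Its targets C1r and C1s differed by 0.15 and 0.01, and neither passed the rank products.

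Serpinh1 (HSP47) is the collagen chaperone of the endoplasmic reticulum. It had 8.99, 8.46, 8.39, 8.40 and 8.63 in the iron-deficient rats, against 8.36, 8.41, 8.40, 8.27 and 8.46 in the pair-fed rats. Iron-deficient replicates 1 and 5 lay above all pair-fed rats, and the other 3 lay within their range. The difference was 0.19 (SE 0.105, limma adjusted p 0.758, exact permutation p = 0.119), and 0.09 without iron-deficient replicate 1. Its further probe set was dim and differed by 0.03. Of 18 collagens and collagen-modifying enzymes, the clients and partners of Serpinh1, 1 was up-regulated by rank products and 0 down-regulated. Over all probe sets, 0.303% were up-regulated. The 1 gene was Lum (lumican, a collagen-binding proteoglycan), with 6.07, 4.80, 5.58, 4.65 and 4.45 in iron-deficient rats, against 4.23, 4.46, 3.93, 4.19 and 4.86 in pair-fed rats, a difference of 0.78. Lum was dim, under the median of all probe sets, so its fold is uncertain. The list had a median difference of 0.17, with 17 of 18 positive, and 5 genes met an unadjusted limma p under 0.05 (6.98% of all probe sets). The groups did not overlap in 2 of the 18 (1.29% of all probe sets), the collagen chains Col5a1 and Col5a2. Col5a1 had 8.35 to 8.48 in iron-deficient rats and 8.15 to 8.32 in pair-fed rats, a difference of 0.17. Col5a2 had 8.54 to 8.96 in iron-deficient rats and 8.04 to 8.45 in pair-fed rats, a difference of 0.38, and its highest rat was iron-deficient replicate 2. Neither passed the rank products. In 15 of the 18 genes iron-deficient replicate 1 was the highest of all 10 arrays, and without it the median was 0.07, with 14 positive. The same array had the largest difference between the 3' and 5' probe sets of the control transcripts, 0.36 for GAPDH and 1.74 for actin, where the other 9 arrays lay between -0.05 and 0.11 and between 1.08 and 1.33. The summed level of the 5 stellate cell markers was 11.07, 10.98, 11.03, 10.68 and 11.09 in the iron-deficient rats, against 10.74 to 10.90 in the pair-fed rats. All iron-deficient rats but replicate 4 were thus above every pair-fed rat. The part of RNA quality or of stellate cells in these values was not tested.

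**Figure D3:**
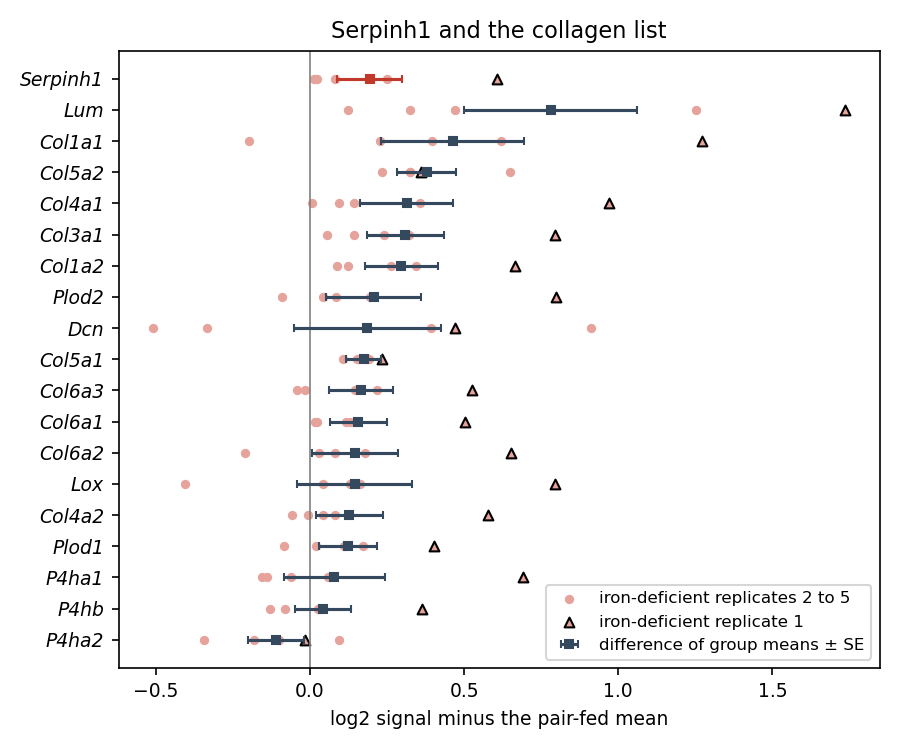
Log2 signal of each iron-deficient rat minus the pair-fed mean (x axis) for Serpinh1 (top, red) and 18 collagens and collagen-modifying enzymes (y axis), with the difference of group means and its standard error as squares. Triangles are iron-deficient replicate 1, the highest of all 10 arrays in 15 of the 18 listed genes.

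Clade I was dim. Serpini1 (neuroserpin, the inhibitor of tissue plasminogen activator in nerve cells) had 4.18, 3.81, 3.90, 3.84 and 3.98 in iron-deficient rats, against 3.94, 3.66, 4.02, 3.90 and 4.03 in pair-fed rats. Serpini2 had 3.62, 3.39, 3.44, 3.46 and 3.60 in iron-deficient rats, against 3.74, 3.57, 3.44, 3.50 and 3.43 in pair-fed rats. These groups overlapped, with differences of 0.03 (SE 0.0898) and -0.04 (SE 0.0769), limma adjusted p of 0.966 and 0.950, and exact permutation p of 0.746 and 0.635.

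How far rats of a group differed varied between the serpins. The median SD over the 33 genes was 0.134 in the iron-deficient group and 0.109 in the pair-fed group, against 0.139 and 0.109 over all genes. Pair-fed rats differed most in Serpinb9b (SD 1.33) and Serpina7 (0.60), and iron-deficient rats most in Serpina7 (0.54) and Serpina5 (0.46). Of 23 protease inhibitors outside the serpin family, only A2m (alpha-2-macroglobulin, which traps proteases of many kinds) was down-regulated by rank products and 0 were up-regulated. Over all probe sets, 0.573% were down-regulated. A2m had 10.74, 10.90, 10.45, 10.43 and 10.36 in the iron-deficient rats, against 11.18, 11.70, 10.78, 10.19 and 11.28 in the pair-fed rats. As in Serpina7, pair-fed replicate 2 was the highest array and pair-fed replicate 4 the lowest of its group. The difference was -0.45 (SE 0.226, FDR 0.031 by rank products, limma adjusted p 0.736).

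**Figure D4:**
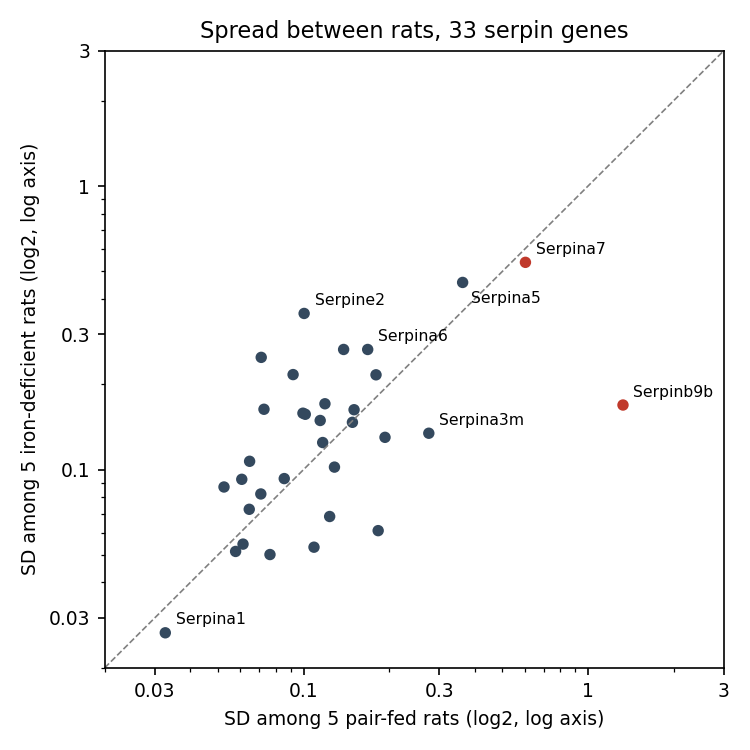
SD among the 5 iron-deficient rats (y axis) against SD among the 5 pair-fed rats (x axis), log2 signals on log axes, for the 33 serpin genes; the dashed line marks equal SDs. Serpinb9b (red) lies far to the right of the line with 0.17 among iron-deficient rats and 1.33 among pair-fed rats, and Serpina7 (red) is at 0.54 and 0.60.

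Over the 10 arrays the median signal was 6.19 to 6.22 and the mean correlation with the other arrays 0.992 to 0.994, lowest in iron-deficient replicate 1. All 6 hepatocyte markers that identify the tissue lay above the median of all probe sets, and 0 of them passed the rank products. All 4 erythroid markers measured were down-regulated by rank products (median difference -0.85), against 0.573% of all probe sets. The summed levels of these markers were 13.12 to 13.81 in the iron-deficient group and 13.69 to 14.31 in the pair-fed group. Their part in any serpin value was not tested.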

How the data were processed

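The authors deposited RMA signals on the log2 scale for 10 arrays, 1 per rat, which the methods state were computed in R and Bioconductor. They were used as deposited, and 57 control probe sets were left out, leaving 31042. The source field of the control samples names the iron-deficient diet, and samples were grouped by title and treatment. Each gene was read from its brightest probe set paired with exactly 1 gene. The serpin genes, the other gene lists and the tests were chosen with earlier results of these data known.

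The rank products method was run in Python 3.11.15 (numpy 2.4.6) over all 25 cross-group pairs of arrays, with 100 permutations within arrays and FDR under 0.05. A linear model of diet was fitted to every probe set with limma 3.58.1 (R 4.3.3), which gave the differences, their standard errors and p-values, adjusted by Benjamini-Hochberg. Single genes were compared by exact permutation tests, 2-sided, over 252 splits of the rats, whose smallest p is 0.00794. The code was tested on simulated data. Values in every rat are given for serpins that passed, the 2 brightest of each clade and the 6 with the largest differences, plus genes chosen after their values were seen (Serpina10 and, outside the family, Ttr, Plg, Gzmb, F2, C1r, C1s, Col5a1 and Col5a2 by range or difference). Of each other list, the genes that passed are named, except the erythroid markers. Gzmm is given as the protease named with Serpinb9b. Promoters came from RefSeq (GRCr8). Alternatives were leaving out each array, other probe set rules, a filter on dim probe sets, median centring, a replicate block, limma calls and rank sums.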

Additional observations from a re-analysis of the deposited data

Results flagged for a closer look

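In 8 of 66 groups of 5 rats, 1 per gene and diet, a single rat stood apart from the other 4 by Dixon's criterion at the 95% level, which chance meets in about 1 of 20 groups. Of the 8 rats, 3 were iron-deficient replicate 1: Serpina10 was at 12.23 (others 12.40 to 12.43), Serpinb11 at 3.68 (others 3.51 to 3.55) and Serpine3 at 3.91 (others 4.31 to 4.44). Iron-deficient replicate 4 stood low in Serpinb6a at 7.66 (others 8.16 to 8.31) and high in Serpinb9b at 5.66 (others 5.24 to 5.34). Iron-deficient replicate 5 was high in Serping1 at 13.50 (others 13.24 to 13.30). In the pair-fed group, replicate 5 was high in Serpina11 at 11.37 (others 11.19 to 11.24) and replicate 1 was high in Serpinc1 at 14.26 (others 14.12 to 14.15). The causes were not tested.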

How the results depend on the processing

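The alternatives gave 458 values. Of these, 446 kept their direction and side of the threshold or moved by less than the spread. Another 3 lost the call and 9 moved. Reversal was counted only for Serpinb9b and Serpina7, and 0 of their values reversed. Small differences of other serpins did change sign, such as Serpine3, at -0.02 with all arrays and 0.08 without iron-deficient replicate 1. Some of this agreement was fixed in advance. Members by current RefSeq symbol were the same, and median centring cannot change the ranks. Rank sums and the replicate block reuse the same differences, and averaging leaves genes with 1 probe set unchanged. With 1 array left out, 1 to 2 serpins were down-regulated and 0 to 0 up-regulated, Serpinb9b differed by -2.69 to -1.85 and Serpina7 by -0.76 to -0.34. Serpina7 lost its call without iron-deficient replicate 1 (-0.40) and without pair-fed replicate 2 (-0.34), which left 1 serpin down-regulated. Replacing the rank product by the rank sum also left 1, with Serpina7 at -0.55 and FDR 0.684. The rank sum called fewer of the 31042 probe sets, 30 down-regulated and 4 up-regulated, against 178 and 94 by rank products. By limma, 0 serpins were down-regulated at an adjusted p under 0.05, and at an unadjusted p 1 was lower and 2 were higher. Leaving out dim probe sets moved the clade E median to 0.18, and gave clade I no value. Leaving out arrays moved the median over all serpins between 0.01 and 0.04. The 234 alternative values of the named serpins that did not pass stayed below the threshold. Other random seeds gave the same counts, 2 and 0.

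Rats of the same replicate number did not deviate together (correlations -0.04 to 0.09 over 5 pairs). This does not settle whether the numbers pair rats by feeding, since matched intake need not show in such correlations. With the replicate block, rank products over same-numbered pairs gave 2 serpins down-regulated and 0 up-regulated. Over all 31042 probe sets they gave 148 down-regulated and 82 up-regulated. limma with the replicate block gave 0 serpins at an adjusted p under 0.05, and 0 of all probe sets. At an unadjusted p it gave 2 serpins lower and 2 higher. The share of all probe sets at that p was not computed with the block, so this count has no background. The median of the collagen list without iron-deficient replicate 1 was an alternative chosen after seeing the data, and was 0.07, against 0.17 with all arrays. With 5 arrays a group, wide spreads such as that of Serpina7 limit what can be called.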

Other observations

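Outside the serpins, 3 of the 7 plasma carriers did not overlap between the groups, against 1.29% of all probe sets. Besides Ttr these were Igfals and Afm, each chosen after its values were seen. Igfals, the acid-labile subunit that holds insulin-like growth factors in the circulation, had 11.41, 11.24, 11.06, 11.09 and 11.31 in iron-deficient rats, against 10.95, 10.85, 11.03, 10.80 and 11.04 in pair-fed rats, a log2 difference of 0.29 (SE 0.082, limma adjusted p 0.601). Afm (afamin, a carrier of vitamin E) had 13.77 to 13.93 in iron-deficient rats and 13.58 to 13.76 in pair-fed rats, a log2 difference of 0.13 (SE 0.060, limma adjusted p 0.705). Neither passed the rank products. Orm1 had a log2 difference of -0.51, with 10.90 to 12.16 in iron-deficient rats and 11.80 to 12.85 in pair-fed rats.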
